A study of Homo sapiens with 18 samples.

Results

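Activating transcription factor 4 (ATF4) and DDIT3, which encodes CHOP, stand with 8 further genes at the center of the transcriptional arm of the integrated stress response (ISR). The 10 genes described here are the transcription factors *ATF4*, *ATF5*, *ATF3*, *DDIT3*, *CEBPB* and *CEBPG*, the effectors *TRIB3*, *CHAC1* and *PPP1R15A*, and the transcriptional cofactor *NUPR1*. They were taken by name from the 45372 gene symbols of an RNA sequencing experiment in 2 AML cell lines with *KMT2A* rearrangements. All 10 were found. No expression value served as a filter, but earlier results of these data were known when the genes were chosen. MV4-11 and THP1 cells (the latter labelled THP-1 or THP1) were treated with DMSO or with 50 nM IACS-010759 (IACS), an inhibitor of complex I of the mitochondrial electron transport chain. Libraries were made after 8 h or 24 h of IACS, with 3 independent replicates in each of the 6 groups, 18 libraries in all. Within a line, the same 3 DMSO libraries served both times, and the labels give no duration for DMSO. Each is an established line grown in culture, so a comparison of THP1 with MV4-11 compares these 2 lines only.

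When a stress kinase phosphorylates eIF2α, translation of most mRNAs falls while the *ATF4* mRNA, held back by short upstream reading frames, is translated more. ATF4 is therefore controlled to a large extent at the level of protein synthesis, and its mRNA level reports only part of its activity. ATF4 pairs with C/EBP proteins on composite DNA elements and induces *DDIT3*, *ATF3*, *TRIB3* and *CHAC1*, and PPP1R15A (GADD34) brings a phosphatase to eIF2α and closes the loop. HRI, activated through DELE1, is the kinase branch known to carry mitochondrial stress to eIF2α.

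Values are in TPM, a transcript abundance scaled for gene length and library size, and fold changes are differences of log2(TPM + 1). A gene was called changed when limma's adjusted p was under 0.05 over all genes tested and the log2 fold change was beyond that of a 1.5-fold ratio in either direction. Genes entered a test if their mean in the cell line reached 1 TPM, and 8 of the 10 genes did so in both lines. *ATF3* and *NUPR1* did not, and are given by their values. The steps between low TPM values put the depth at about 21.7 to 28.5 M reads per library. At this depth *CHAC1* rested on 11 to 123 reads per library, *ATF3* on 20 to 54 and *ATF4* on 3443 to 7264. Both lines expressed the myeloid markers *PTPRC*, *SPI1*, *CD33*, *LYZ*, *CSF1R* and *HOXA9*. *MPO* was low, at 3.86 to 7.67 TPM in MV4-11 and 0.728 to 2.52 TPM in THP1. *MEIS1* was at 20.7 to 29.3 TPM in MV4-11 and did not exceed 0.0284 TPM in THP1. Of 8 markers of other cell types, 6 did not exceed 0.172 TPM in any library, *CD79A* reached 1.71 TPM in MV4-11, and *PECAM1*, which myeloid cells also express, was at 13.9 to 69.7 TPM. Between IACS and DMSO, limma called 0 of 8 myeloid markers (7 tested in THP1) and 0 of the tested markers of other cell types. At an unadjusted p it also called 0. Between the untreated lines it called 5 of the 8 myeloid markers, and both tested markers of other cell types, *CD79A* and *PECAM1*. Of all 14915 genes tested between the untreated lines, 38.3% were called. The 3 THP1 libraries numbered 3 had the highest shares of TPM in 5 abundant noncoding RNAs, at 55.8% in DMSO, 60.0% at 8 h and 60.1% at 24 h. The other 15 libraries had 39.6 to 54.5%, so the DMSO library numbered 3 was close to the top of their range. Values without the 3 THP1 libraries numbered 3 are given beside the comparisons of THP1.

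In DMSO, the 10 genes spanned a wide range of levels, and the order differed between the lines below the top. *ATF4* was the highest in both, at 179 ± 11.9 TPM in MV4-11 and 139 ± 21.1 TPM in THP1 (SD, n = 3). *CEBPG*, a C/EBP protein that pairs with ATF4, came next at 66.3 ± 1.20 and 42.0 ± 4.83 TPM. In MV4-11, *PPP1R15A* followed at 30.2 ± 2.32 TPM, and *CEBPB*, *ATF5* and *DDIT3* lay together at 14.7 ± 1.67, 14.2 ± 0.916 and 14.2 ± 1.35 TPM with overlapping libraries. *TRIB3* stood at 6.13 ± 1.04 TPM below them. In THP1, *DDIT3* came after these at 29.8 ± 3.76 TPM and *TRIB3* next at 19.3 ± 2.48 TPM, each clear of its neighbors. *PPP1R15A*, *CEBPB* and *ATF5* followed at 13.7 ± 1.08, 11.2 ± 2.18 and 9.23 ± 0.501 TPM, with overlap between each and the next. The lowest were *CHAC1* at 0.982 ± 0.109 and 0.680 ± 0.120 TPM, *ATF3* at 0.807 ± 0.129 and 0.597 ± 0.0333 TPM, and *NUPR1* at 0.0102 ± 0.00900 and 0.548 ± 0.145 TPM, in MV4-11 and THP1 in turn.

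Between the untreated lines, 4 of the 8 tested genes were called different by limma, 2 in each direction, against 38.3% of the 14915 genes tested. *TRIB3*, a pseudokinase that binds ATF4 and CHOP and holds back their activity, was 17.9, 17.9 and 22.2 TPM in the THP1 libraries and 6.20, 7.13 and 5.06 TPM in the MV4-11 libraries. Its log2 difference of THP1 minus MV4-11 was 1.51 ± 0.17 (SE, limma adjusted p = 5.23e-07). *DDIT3*, whose product CHOP promotes apoptosis under prolonged stress, was at 32.7, 31.1 and 25.5 TPM in THP1 and 14.9, 14.99 and 12.6 TPM in MV4-11, a log2 difference of 1.02 ± 0.27 (SE, limma adjusted p = 0.00368). *PPP1R15A* and *CEBPG* were lower in THP1, with log2 differences of -1.09 ± 0.18 and -0.65 ± 0.14 (SE, limma adjusted p = 4.98e-05 and 0.000604). For these 4 genes, picked here because they were called, the 3 libraries of one line did not overlap the 3 of the other. The share of all genes without such overlap between the lines is not given here. *CEBPG* was at -0.56 without THP1 DMSO replicate 3, inside the fold threshold. *ATF4*, *ATF5*, *CEBPB* and *CHAC1* had log2 differences of -0.37, -0.57, -0.38 and -0.24 and were not called.

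**Figure D1:**
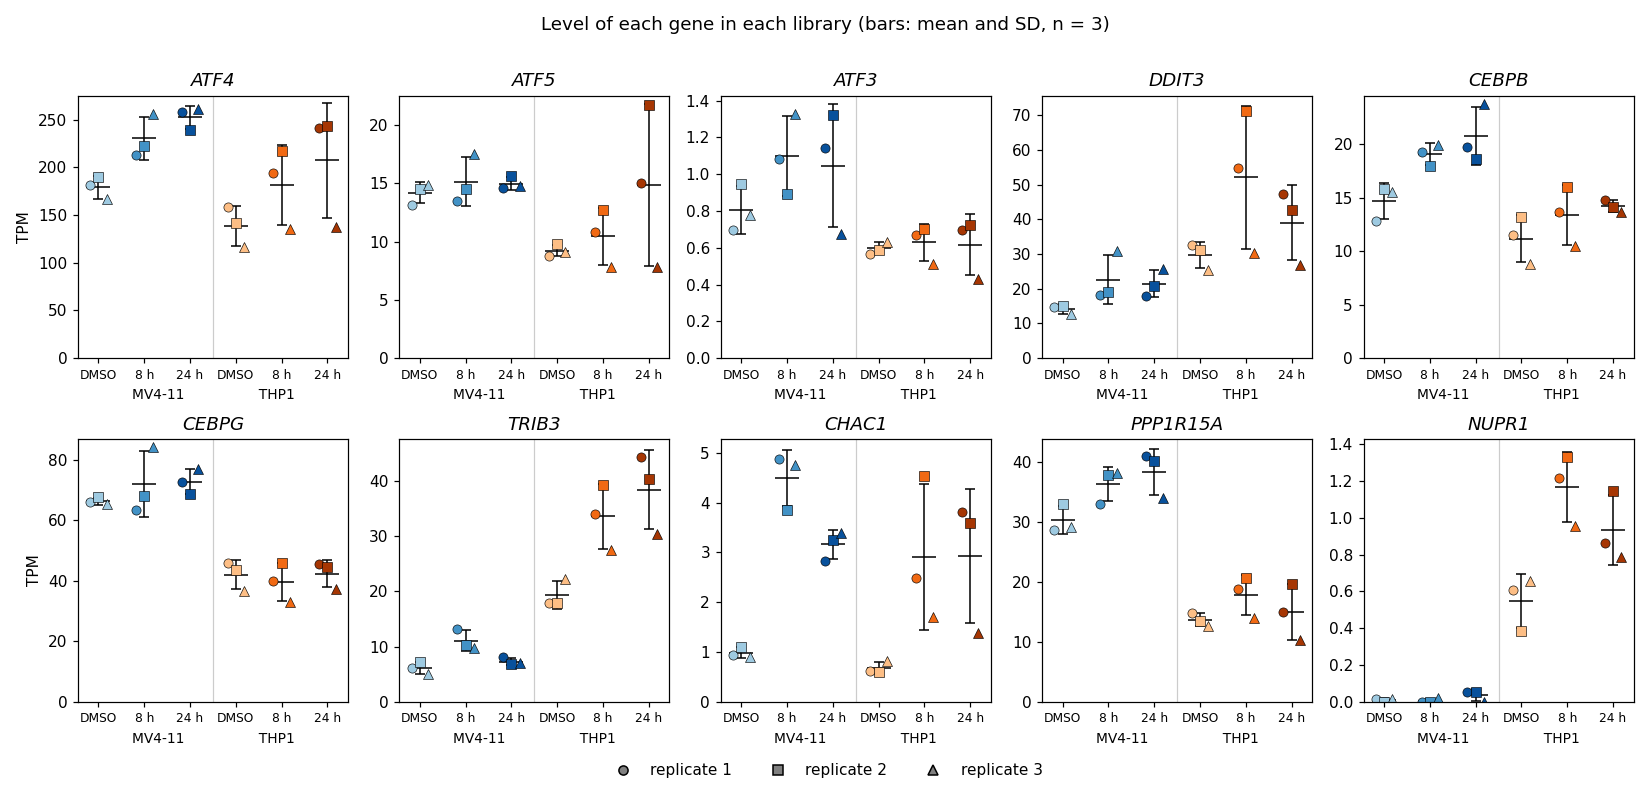
Level of each of the 10 genes in TPM (y axis, linear from 0, scaled per gene) in each of the 18 libraries, by cell line and treatment (x axis), with symbols for the replicate number and bars for the mean and SD of 3 libraries. *CHAC1* lies between 0.605 and 1.10 TPM in all 6 DMSO libraries and between 1.37 and 4.86 TPM in all 12 IACS libraries, and the triangle of THP1 replicate 3 is the lowest of its group for all 10 genes at both times.

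To see whether the DNA next to the start sites of these genes holds the letters that ATF4 complexes are known to bind, the 250 bases before each RefSeq start site were searched on both strands, in windows of build GRCh38.p14. Windows were found for 9 of the 10 genes, and none was found for *NUPR1*. The C/EBP-ATF element was written as TGATGNAA, the cAMP response element as TGACGTCA and the CCAAT box as CCAAT, and these patterns do not contain one another. TGATGNAA was found for *ATF3*, *CEBPG* and *CHAC1*, against 3.89% of the 27305 genes with a window. TGACGTCA was found for *PPP1R15A*, against 2.03% of genes, and CCAAT for *ATF3*, *DDIT3*, *CEBPB*, *CEBPG* and *CHAC1*, against 37.0% of genes. The 9 genes had 18 windows and all 27305 genes had 35116, so these 9 had more windows per gene than the background. By window, 3.14%, 1.65% and 32.0% of the 35116 held TGATGNAA, TGACGTCA and CCAAT. A match describes letters and is not evidence of binding, and the absence of all 3 patterns in *ATF4*, *ATF5* and *TRIB3* says only that these windows lack those letters. The 4 sites are shown because they set the gene with the largest change, *CHAC1*, beside 3 genes whose changes were smaller. Each is printed 5′ to 3′ on the strand that reads the motif, with the motif in capitals.
CHAC1: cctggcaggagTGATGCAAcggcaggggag
CEBPG: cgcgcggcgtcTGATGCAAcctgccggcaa
ATF3: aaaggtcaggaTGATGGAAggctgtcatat
PPP1R15A: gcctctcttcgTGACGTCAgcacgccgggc
The *CHAC1* site is at chr15:40953251-40953280 on the minus strand, opposite to the gene, where the GENCODE annotation places a UTR exon of a longer *CHAC1* transcript. The *CEBPG* site is at chr19:33374060-33374089 on the plus strand, inside an intron of a *CEBPG* transcript. The *ATF3* site is at chr1:212565205-212565234 on the plus strand, outside annotated transcripts. The *PPP1R15A* site is at chr19:48872352-48872381 on the plus strand, in an annotated UTR exon. *CEBPG* and *CHAC1* carry the same 8 letters, while *CHAC1* had the largest log2 fold changes of the 8 tested genes and *CEBPG* some of the smallest, as the values below show.

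The first question was which of the genes changed under IACS in MV4-11. *CHAC1*, an enzyme that breaks down glutathione, was at 0.944, 1.10 and 0.897 TPM in DMSO, at 4.86, 3.84 and 4.75 TPM after 8 h and at 2.83, 3.26 and 3.39 TPM after 24 h. The 6 treated values all exceeded the 3 of DMSO. It rose 4.57-fold by the ratio of means at 8 h and 3.22-fold at 24 h, with log2 fold changes of 1.47 ± 0.14 and 1.07 ± 0.14 (SE, limma adjusted p = 0.00315 and 0.0212). *CHAC1* was the only one of the 8 tested genes called in MV4-11, at 8 h (0.0148% of 13542 genes were called in either direction) and at 24 h (0.0886%). At 24 h the call was lost without any one of MV4-11 DMSO replicates 1, 2 and 3 or MV4-11 IACS 24 h replicates 1 and 2, with limma adjusted p of at most 0.181, while the log2 fold change stayed between 1.04 and 1.13. At 8 h it held without each library in turn.

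*TRIB3* in MV4-11 was at 6.20, 7.13 and 5.06 TPM in DMSO and at 13.2, 10.3 and 9.69 TPM after 8 h, with no overlap. At 24 h it was at 8.06, 6.81 and 6.94 TPM, which overlapped DMSO. Its log2 fold changes were 0.76 ± 0.15 at 8 h and 0.22 ± 0.15 at 24 h (SE, limma adjusted p = 0.24 and 0.59), and neither passed. *PPP1R15A*, at 28.7 to 32.9 TPM in DMSO, was at 32.997 to 38.1 TPM at 8 h and at 33.9 to 41.0 TPM at 24 h, log2 fold changes of 0.25 and 0.33 (limma adjusted p = 0.982 and 0.293).

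Among the transcription factors in MV4-11, none was called. *ATF4* was at 181, 190 and 166 TPM in DMSO, at 213, 223 and 256 TPM after 8 h and at 257, 239 and 261 TPM after 24 h. Its treated libraries all lay above DMSO, with log2 fold changes of 0.36 ± 0.12 and 0.49 ± 0.12 (SE, limma adjusted p = 0.982 and 0.132). *DDIT3* was at 14.9, 14.99 and 12.6 TPM in DMSO, at 18.1, 19.0 and 30.8 TPM after 8 h and at 17.8, 20.8 and 25.6 TPM after 24 h. The groups did not overlap, but treated replicate 3 was well above the other 2 at 8 h, and the log2 fold changes of 0.60 ± 0.19 and 0.55 ± 0.19 had limma adjusted p of 0.982 and 0.283. Without IACS 8 h replicate 3 the log2 fold change at 8 h was 0.37, inside the fold threshold. *CEBPB*, another C/EBP protein, was at 12.8 to 15.8 TPM in DMSO, 18.01 to 19.99 TPM at 8 h and 18.6 to 23.8 TPM at 24 h, log2 fold changes of 0.36 and 0.47. *CEBPG* had log2 fold changes of 0.10 and 0.13, and *ATF5*, a relative of ATF4 linked to the mitochondrial unfolded protein response, of 0.08 and 0.07. *ATF5* was at -0.02 at 24 h under median-of-ratios scaling. *ATF3*, at 0.695 to 0.948 TPM in DMSO, was at 0.893 to 1.33 TPM at 8 h and 0.674 to 1.32 TPM at 24 h, which overlapped DMSO (2-sided exact permutation p = 0.2 and 0.4, where 0.1 is the smallest that 3 against 3 allow). *NUPR1* did not exceed 0.0543 TPM, or 3 reads, in any MV4-11 library.

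As a group in MV4-11, all 8 tested genes had log2 fold changes above 0 at both times, against 66.9% and 66.0% of all genes tested. The median of the 8 was 0.36 at 8 h and 0.40 at 24 h, beside medians of 0.06 and 0.08 over all genes tested. Above those medians of all genes lay 8 of the 8 at 8 h and 7 at 24 h. The 3 treated values exceeded every DMSO value for 6 of the 8 genes at 8 h, against 7.13% of all genes, and for 6 of the 8 at 24 h, against 19.4%. At 8 h the 6 were *ATF4*, *DDIT3*, *CEBPB*, *TRIB3*, *CHAC1* and *PPP1R15A*, and at 24 h *CEBPG* took the place of *TRIB3*. With an unadjusted p and the same fold threshold, limma called 3 of the 8 at 8 h (*DDIT3*, *TRIB3* and *CHAC1*), against 0.672% of all genes, and 1 of the 8 at 24 h (*CHAC1*), against 1.99%.

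**Figure D2:**
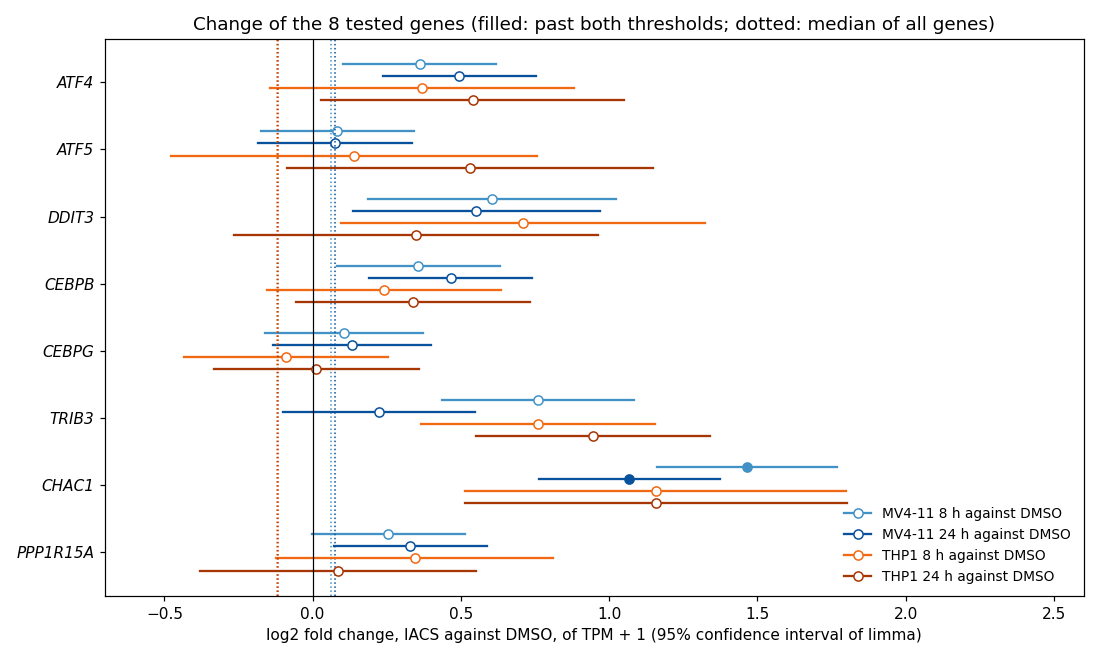
Log2 fold change of TPM + 1, IACS against DMSO (x axis), with its 95% confidence interval from limma, for the 8 tested genes (y axis) in the 4 comparisons (colors). Filled points, *CHAC1* in MV4-11 at 1.47 and 1.07, passed both thresholds, dotted lines mark the medians of all genes between -0.12 and 0.08, and the intervals of THP1 are wider than those of MV4-11.

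In THP1, *CHAC1* was at 0.616, 0.605 and 0.818 TPM in DMSO, at 2.49, 4.54 and 1.70 TPM after 8 h and at 3.81, 3.60 and 1.37 TPM after 24 h. No treated library overlapped DMSO, and replicate 3 was the lowest of the 3 at both times. The ratio of means was 4.28 at 8 h and 4.30 at 24 h, and the log2 fold changes were 1.16 ± 0.30 and 1.16 ± 0.30 (SE, limma adjusted p = 0.941 and 0.367). *TRIB3* was at 17.9, 17.9 and 22.2 TPM in DMSO, at 34.0, 39.3 and 27.5 TPM after 8 h and at 44.3, 40.4 and 30.5 TPM after 24 h. It too showed no overlap, with log2 fold changes of 0.76 ± 0.18 and 0.95 ± 0.18 (SE, limma adjusted p = 0.941 and 0.126). *PPP1R15A* was at 12.7 to 14.8 TPM in DMSO, 14.0 to 20.6 TPM at 8 h and 10.3 to 19.7 TPM at 24 h, with overlap and log2 fold changes of 0.34 and 0.09, which were 0.45 and 0.27 without the libraries numbered 3.

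*ATF4* in THP1 was at 158, 142 and 116 TPM in DMSO, at 194, 217 and 135 TPM after 8 h and at 241, 243 and 138 TPM after 24 h. Replicates 1 and 2 lay above all DMSO libraries and replicate 3 within their range, and the log2 fold changes were 0.37 ± 0.24 and 0.54 ± 0.24 (SE, limma adjusted p = 0.941 and 0.563). *DDIT3* was at 32.7, 31.1 and 25.5 TPM in DMSO, at 54.8, 71.1 and 30.2 TPM after 8 h and at 47.4, 42.7 and 26.9 TPM after 24 h. Again replicate 3 fell within the DMSO range, and the log2 fold changes were 0.71 ± 0.28 and 0.35 ± 0.28 (SE, limma adjusted p = 0.941 and 0.71). *ATF5*, at 8.78 to 9.77 TPM in DMSO, was at 15.01, 21.7 and 7.83 TPM after 24 h, so that replicate 3 was below every DMSO library, and its log2 fold change of 0.53 ± 0.28 did not pass. Without IACS 24 h replicate 2 it was 0.22 and without replicate 3 it was 0.90. *CEBPB* was at 8.85 to 13.2 TPM in DMSO and 13.7 to 14.8 TPM at 24 h, log2 fold changes of 0.24 at 8 h and 0.34 at 24 h. *CEBPG* had -0.09 at 8 h, which was 0.04 under median-of-ratios scaling, and 0.01 at 24 h. *ATF3* stayed between 0.429 and 0.725 TPM in all 9 THP1 libraries (2-sided exact permutation p = 0.7 at 8 h and 1 at 24 h).

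*NUPR1*, a small chromatin protein induced by stress, was close to 0 in MV4-11 and measurable in THP1. In THP1 it was at 0.607, 0.383 and 0.654 TPM in DMSO, at 1.21, 1.33 and 0.956 TPM after 8 h and at 0.863, 1.147 and 0.788 TPM after 24 h. The treated libraries all lay above DMSO, with ratios of means of 2.13 and 1.70 (2-sided exact permutation p = 0.1 for each, the smallest that 3 against 3 allow). These values rest on 21 to 89 reads per library, and 909 of the 5508 annotated exon bases of *NUPR1* are shared with another gene on the same strand.

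None of the 8 tested genes was called in THP1 by limma at 8 h, where 0.0144% of 13928 genes were called, or at 24 h, where 0.0431% were. With an unadjusted p and the same fold threshold, limma called *DDIT3*, *TRIB3* and *CHAC1* at 8 h, 3 of 8 against 0.761% of all genes, and *TRIB3* and *CHAC1* at 24 h, 2 of 8 against 2.2%. Kruskal–Wallis and Dunn tests with unadjusted p called 0 of the 8 at either time, against 0.0431% of all genes at 8 h and 0.165% at 24 h. With 3 libraries per group, these tests cannot pass a gene raised alike at both times. Nor can they pass a group lying wholly between the other 2, so these counts of 0 do not show that a change is absent. The same-numbered THP1 libraries of DMSO and 24 h shared deviations, and a fit that blocked on this number called *TRIB3* and *CHAC1* higher at 24 h (limma adjusted p = 0.00427 and 0.0111). In this blocked fit *ATF4* was at 0.54 ± 0.10 at 24 h (SE, limma adjusted p = 0.0103), inside the fold threshold, and was not called. With median-of-ratios scaling, *ATF4*, *TRIB3* and *CHAC1* were called higher at 24 h, with log2 fold changes of 0.66, 1.06 and 1.19 (limma adjusted p = 0.0346, 0.0166 and 0.032). The share of all genes called in the blocked and the rescaled fit is not given here, so these calls have no background beside them. The 3 treated values exceeded every DMSO value for *TRIB3* and *CHAC1* at 8 h, 2 of 8 against 0.704% of all genes, and for these and *CEBPB* at 24 h, 3 of 8 against 3.32%. The median log2 fold change of the 8 genes was 0.36 at 8 h and 0.44 at 24 h, beside -0.12 for all genes at each time. Log2 fold changes were above 0 in 7 genes at 8 h and 8 at 24 h, against 16.4% and 27.1% of all genes.

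The treated THP1 libraries of replicate 3 held the lowest values of their groups for all 10 genes. Against the mean of the DMSO libraries, the median log2 difference of the 8 genes was 0.46 and 0.61 in the 8 h libraries of replicates 1 and 2, and -0.00061 in replicate 3. At 24 h it was 0.65, 0.66 and -0.07. In the 2 replicate 3 libraries the median of all genes was also lower, at -0.31 and -0.31. After median-of-ratios scaling, the medians of the 8 genes in these 2 libraries were 0.34 and 0.27, and those in THP1 replicates 1 and 2 were 0.49 to 0.73. *TRIB3* and *CHAC1* lay above the DMSO mean in replicate 3 at both times, by 0.49 to 0.69 on the log2 scale. Replicate 3 was also set against THP1 DMSO replicate 3 alone. At 8 h and 24 h, *ATF4* then differed by 0.21 and 0.24, and *DDIT3* by 0.24 and 0.07. *CEBPB* differed by 0.22 and 0.58, *TRIB3* by 0.30 and 0.44, and *CHAC1* by 0.57 and 0.38. *PPP1R15A* differed by 0.13 and -0.28, *ATF5* by -0.20 and -0.20, and *CEBPG* by -0.14 and 0.02. Without the 3 THP1 libraries numbered 3, an alternative added after the data were seen, *DDIT3*, *TRIB3* and *CHAC1* were called higher at 8 h, with log2 fold changes of 0.95, 0.99 and 1.45. *ATF4*, *ATF5*, *TRIB3* and *CHAC1* were then called higher at 24 h, with 0.69, 0.89, 1.20 and 1.55. With the 5 noncoding RNAs left out of the TPM of all libraries, *TRIB3* and *CHAC1* were called higher in THP1 at 24 h, with log2 fold changes of 1.11 and 1.56 (limma adjusted p = 0.0264 and 0.0407), and 0 of the 8 genes at 8 h. For the refits in this paragraph the share of all genes called is not given, so their calls have no background.

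**Figure D3:**
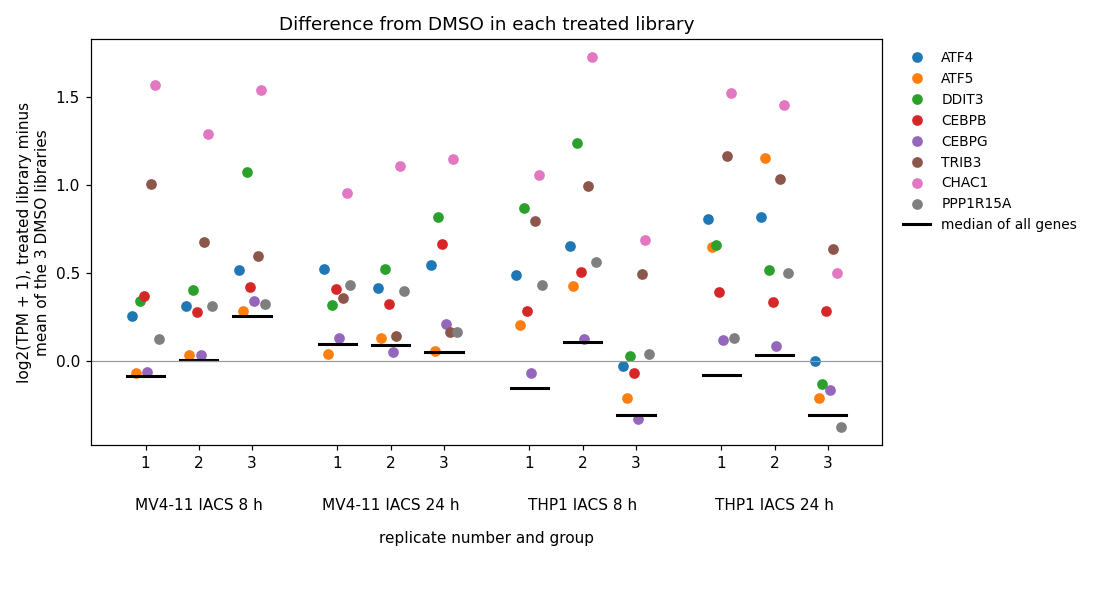
Difference of log2(TPM + 1) between each treated library and the mean of the 3 DMSO libraries of its line (y axis), for the 8 tested genes (colored points), by group and replicate number (x axis), with black lines for the median of all genes. In MV4-11 the median of all genes runs from -0.08 to 0.26, and in THP1 it falls to -0.31 in the replicate 3 libraries, where 4 of the 8 genes lie above 0 at each time.

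The next comparison asked whether the response changed between 8 h and 24 h. In MV4-11, *TRIB3* and *CHAC1* were lower at 24 h than at 8 h in all 3 libraries against all 3, 2 of the 8 genes against 2.05% of all genes. Their log2 differences were -0.54 ± 0.15 and -0.40 ± 0.14 (SE, unadjusted p = 0.0036 and 0.0148 in limma), and neither passed after adjustment. *ATF4* and *CEBPB* were 0.13 and 0.11 higher at 24 h, with 95% confidence intervals of -0.12 to 0.39 and -0.17 to 0.38. In THP1, *TRIB3* had a difference of 0.19 (95% confidence interval -0.21 to 0.58), *CHAC1* of 0.00 (-0.64 to 0.64), *ATF5* of 0.39 and *DDIT3* of -0.36. Without the THP1 libraries numbered 3, these 4 values were 0.21, 0.10, 0.59 and -0.46, and limma called 0 of the 8. Limma called 0 of the 8 genes between the times in either line, against 0% of all genes in MV4-11 and 0.00718% in THP1. With an unadjusted p it again called 0 of the 8, against 0.465% and 1.19%, and Dunn tests called 0 of the 8, against 0.0222% and 0.136%. With 3 libraries per group, Dunn tests cannot part the 8 h and 24 h groups where both lie wholly above DMSO.

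Whether the lines responded differently was tested as the difference of the responses, THP1 minus MV4-11. At 8 h, limma called 0 of the 8 genes, against 0.00796% of 12555 genes, and 0 with an unadjusted p, against 1.47%. *TRIB3* had a difference of 0.00 (95% confidence interval -0.50 to 0.50), *ATF4* of 0.01 (-0.57 to 0.59) and *CHAC1* of -0.31 (-1.03 to 0.42), and the interval of *CHAC1* includes differences nearly as large as its response in THP1. Without the THP1 libraries numbered 3 these values were 0.23, 0.09 and -0.02. At 24 h, limma again called 0 of the 8, against 0.00796% of genes. With an unadjusted p it called *TRIB3*, 1 of the 8 against 4.02%, for which the THP1 response was larger by 0.72 ± 0.24 on the log2 scale (SE, unadjusted p = 0.00679, limma adjusted p = 0.665). With the replicate number as a block, this *TRIB3* difference was 0.72 ± 0.21 (SE, limma adjusted p = 0.0961) and was not called. The *TRIB3* values at 24 h lay above DMSO in all 3 THP1 libraries and overlapped DMSO in MV4-11. *ATF5* and *CHAC1* had differences of 0.46 and 0.09 at 24 h. Without the THP1 libraries numbered 3, *TRIB3*, *ATF5* and *CHAC1* were at 0.98, 0.82 and 0.48, and limma called 0 of the 8 at either time (adjusted p = 0.294, 0.388 and 0.624 for these 3 at 24 h).

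Reads of some of these genes can be shared with neighbors, since the library kit does not keep strand. *DDIT3* shares 355 of 1307 exon bases with *MARS1* and 58 with *MBD6*, both on the opposite strand, and 105 with an unnamed gene on its own strand. The log2 fold changes of *MARS1* (listed as *MARS*) were 0.23 and 0.13 in MV4-11 and 0.15 and 0.23 in THP1, and those of *MBD6* were between -0.09 and 0.07, all below those of *DDIT3*. *ATF5* shares 565 of 2892 exon bases with *NUP62* on the opposite strand, which had log2 fold changes of -0.38 to -0.13, 75 with *IL4I1* and 74 with *MIR4751*. *CEBPB* shares 231 of 1839 with *CEBPB-AS1*. *ATF4*, *ATF3*, *CEBPG*, *TRIB3*, *CHAC1* and *PPP1R15A* share no exon bases with another gene.

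Other genes of the pathway were read from lists. Of 32 other ATF4 targets, chiefly amino acid synthesis and transport genes, 26 were tested in each line. *PHGDH*, the first enzyme of serine synthesis, was the only one called, at 24 h in MV4-11 at 1.03 ± 0.15 on the log2 scale (SE, limma adjusted p = 0.0334), and it was also the highest at 8 h with 1.00. At an unadjusted p and the fold threshold, 7 and 1 of the 26 were higher in MV4-11 at 8 h and 24 h, against 0.532% and 1.71% of all genes. In THP1, 3 and 6 of the 26 were higher, against 0.136% and 0.467%, and 0 were lower in any of the 4 comparisons. In THP1 the highest were *ADM2*, a secreted peptide, at 8 h with 1.08 and *ASNS*, asparagine synthetase, at 24 h with 1.37 (limma adjusted p = 0.0658). *ALDH18A1*, a proline synthesis enzyme, was the lowest in all 4 comparisons, at -0.34 to -0.15. The list medians were 0.24 and 0.15 in MV4-11 and 0.18 and 0.29 in THP1, at 8 h and 24 h. In DMSO, 11 of 27 tested targets were called between the lines, a share near the 38.3% of all genes, which is also the background for the DMSO counts of the lists that follow. Of the 11, 4 were higher in THP1 (*PHGDH*, *VLDLR*, *ALDH1L2* and *ADM2*, at 0.61 to 2.31) and 7 lower (*GPT2*, *KLHL24*, *SLC7A5*, *ASNS*, *ALDH18A1*, *EIF4EBP1* and *WARS*, at -1.63 to -0.65).

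The 14 genes upstream of ATF4 (the eIF2α kinases, DELE1, OMA1, eIF2α, the eIF2B subunits and their regulators) were all tested and 0 were called in any of the 4 comparisons by limma, also 0 at an unadjusted p. *DELE1* was the highest in MV4-11, at 0.26 and 0.40, and was at -0.07 and -0.01 in THP1, where *OMA1*, the protease that cuts DELE1, was the highest at 0.06 and 0.12. The lowest were *EIF2S1*, which encodes eIF2α, in MV4-11 at -0.18 and -0.27, and *EIF2AK2* at -0.24 and *EIF2B3* at -0.39 in THP1. In DMSO *EIF2AK2*, the kinase PKR, was higher in THP1 by 2.10 and was the only one of the 14 called between the lines.

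Of the 22 bZIP factors that can pair with these proteins, 20 were tested in each line and 0 were called. At an unadjusted p and the fold threshold, 1 of the 20 was higher in 3 of the 4 comparisons. The shares of all genes higher by this rule were 1.71% in MV4-11 at 24 h, and 0.136% and 0.467% in THP1 at 8 h and 24 h. It was the same gene each time. That gene was *JDP2*, an ATF3 relative, with log2 fold changes of 0.54 and 0.59 in MV4-11 and 0.68 and 0.70 in THP1. *JUN* was the highest at 8 h in MV4-11, at 0.54, and the lowest values were -0.21 for *FOSL1*, -0.06 for *NFE2L2*, -0.23 for *FOSL2* and -0.26 for *MAFK*, each in 1 comparison. In DMSO, *BATF3* and *BATF2* were higher in THP1, by 0.91 and 0.88, and *JUND*, *JUNB*, *MAFK* and *FOSB* lower, at -2.01, -1.27, -0.78 and -0.60. Among 9 paralogues of the 10 genes, 7 were tested and *JDP2* was again the highest in all 4 comparisons, while *CHAC2*, the paralogue of *CHAC1* that degrades glutathione at a slower rate, was the lowest in MV4-11, at -0.22 and -0.40, and in THP1 at 24 h, at -0.37. *TRIB1* was the lowest in THP1 at 8 h, at -0.20, and *PPP1R15B* was higher in untreated THP1 by 1.06 and called. Of 6 genes linked to CHOP in cell death, 0 were called by limma, 0 at an unadjusted p, with *BBC3* the highest at 0.17 to 0.43 and *ERO1A* the lowest at -0.33 to -0.18 in all 4 comparisons. In DMSO, *TNFRSF10B*, the death receptor DR5, *BBC3* and *TNFRSF10A* were called between the lines, with log2 differences of -2.42, -1.43 and -1.17 of THP1 minus MV4-11.

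The ER chaperone genes had list medians below 0 in all 4 comparisons. Of 15 tested, 0 were called by limma in the 4 comparisons. At an unadjusted p and the fold threshold, the 8 h and 24 h comparisons held 1 and 2 genes with lower values for MV4-11 and 0 and 6 for THP1, and 0 with higher values. The shares of all genes that were lower by this rule were 0.14% and 0.273% in MV4-11 and 0.625% and 1.74% in THP1. The list medians were -0.26 and -0.39 in MV4-11 and -0.31 and -0.52 in THP1. *HSPA5*, which encodes the chaperone BiP, was at -0.71 and -0.75 in MV4-11 and -0.43 and -0.80 in THP1 (limma adjusted p = 0.503, 0.117, 0.941 and 0.433). *SDF2L1* was the lowest in THP1 at 24 h, at -1.14, and *MANF* at 8 h, at -0.48. The highest values were 0.10 for *HERPUD1*, 0.08 and 0.02 for *EDEM1* and 0.14 for *XBP1*. In DMSO, *EDEM1*, *CRELD2* and *HSP90B1* were higher in THP1, by 1.28, 0.80 and 0.64, and *XBP1* lower, at -0.62. Immediate early genes, which mark handling and acute stress, had 16 tested in MV4-11 and 13 in THP1, and 0 were called. At an unadjusted p and the fold threshold, 1 of the 16 was higher in MV4-11 at each time, against 0.532% and 1.71%. In THP1, 1 of the 13 was lower at each time, against 0.625% and 1.74%. By this rule 2 and 5 of 13 were lower in the difference of the responses, against 1.47% and 4.02% in either direction. The highest of the immediate early genes were *RHOB* in MV4-11 at 0.63 and 0.71, and *FOS* and *BTG2* in THP1 at 0.16 and 0.27. Their lowest were *DUSP2* and *KLF10* in MV4-11 at -0.25 and -0.21, and *KLF10* in THP1 at -0.83 and -0.86. In DMSO, *KLF4* was higher in THP1 by 0.78, and *IER2*, *JUNB* and *FOSB* were lower, at -1.44, -1.27 and -0.60. Their medians were 0.12 and 0.32 in MV4-11 and -0.02 and -0.06 in THP1. No gene of these 7 lists was called between 8 h and 24 h in either line or in the difference of the responses between the lines.

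**Figure D4:**
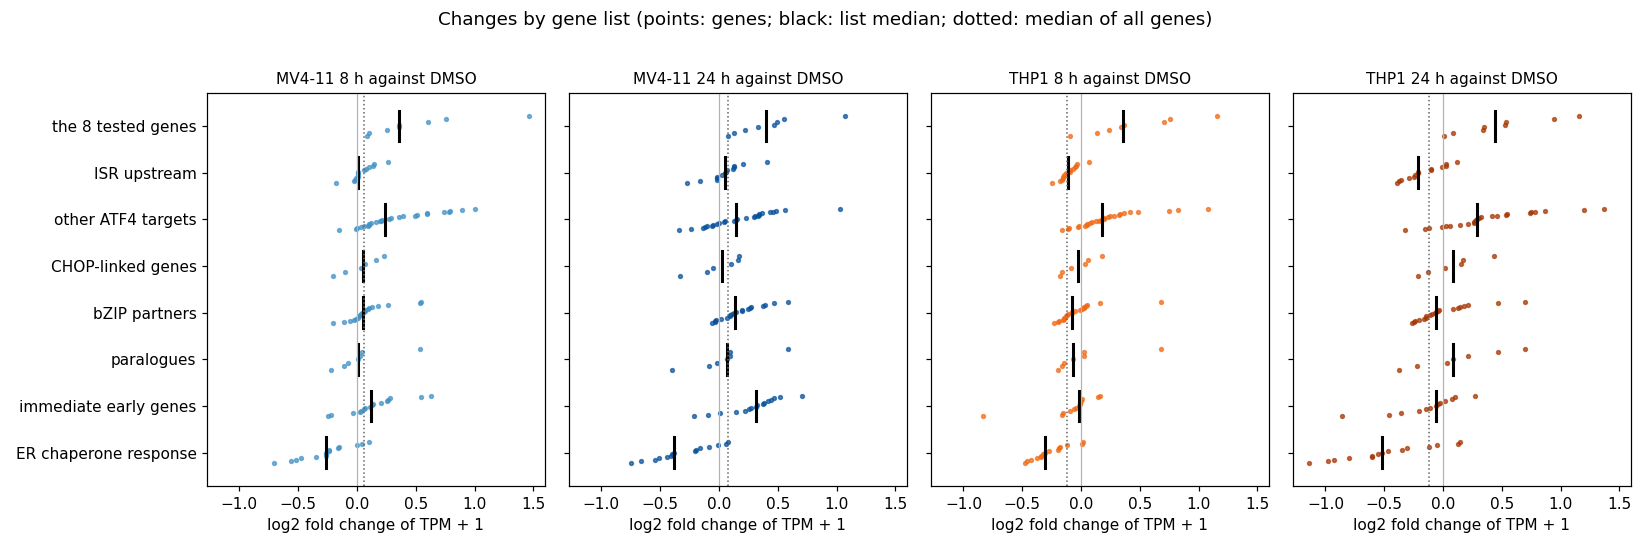
Log2 fold change of TPM + 1 (x axis) of each tested gene (points) in the 8 tested genes and 7 lists (y axis), 1 panel per comparison, with black bars for list medians and a dotted line for the median of all genes. The medians of the 8 genes lie at 0.36 to 0.44 and those of the ER chaperone genes at -0.52 to -0.26.

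Over all 18 libraries, after the mean of each line was subtracted, the genes whose log2(TPM + 1) ran closest to *ATF4* among 12555 were *SARS*, *TRIM16L*, *PTP4A3*, *MTHFD2* and *SHMT2* (Pearson's r of 0.90 to 0.92). Among those closest to *DDIT3* were *MTHFD2*, *SARS*, *WDR19* and *RINL* (r of 0.86 to 0.88). Those closest to *CHAC1* were *SESN2*, *JDP2*, *TRIB3*, *ASNS* and *ZNF821* (r of 0.88 to 0.92). The libraries share their scaling and their treatment groups, so these values are a description. Within the 9 libraries of a line, *CHAC1* and *TRIB3* had r of 0.80 in MV4-11 and 0.96 in THP1, and *CEBPG* and *TRIB3* had r of 0.09 and 0.16.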

How the data were processed

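The authors trimmed paired-end reads from libraries made with a kit that does not mark strand, aligned them to GRCh38 with CLC Genomics Workbench and deposited TPM per gene. The gene annotation they used is not given in the sources used here. From the deposited TPM, log2(TPM + 1) was tested with limma 3.58.1 in R 4.3.3 (variances moderated with a trend). Each cell line's 9 libraries shared a fit, and differences between lines used all 18, with Benjamini-Hochberg adjustment over all genes tested. The study's own Kruskal–Wallis and Dunn tests were run as an alternative. The 3 replicates are labelled independent. Members, lists and tests were chosen with earlier results of these data known. All 10 genes were named in every comparison, and from each list the called genes and the highest and lowest fold changes. Same-numbered THP1 libraries of DMSO and 24 h had deviations correlated at 0.146 to 0.324 across genes, so the number was taken to pair them, and likewise for 8 h with 24 h in THP1 (0.183 to 0.357) and MV4-11 (0.11 to 0.441). Differently numbered libraries reached 0.0998, 0.149 and 0.387 in turn, so in MV4-11 they overlapped the same-numbered range. Under median-of-ratios scaling the lowest same-numbered value in MV4-11 was 0.089, and this pair of groups no longer met the rule. Depth was estimated from the steps of low TPM values times the GENCODE exon length, of which 82.7 to 84.7% lay within 0.05 of a whole read. Start-site windows came from RefSeq on GRCh38.p14. Scripts were tested on simulated data. One gene that the rule for similar patterns names is not reported here.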

Additional observations from a re-analysis of the deposited data

How the results depend on the processing

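Of 1458 log2 fold changes of the tested genes under the alternatives, 1338 kept their direction and their side of the thresholds, 33 came to pass them, 9 no longer passed and 78 changed sign, all of the last with a main value of at most 0.21 in size and limma adjusted p of at least 0.847. The count of called genes in MV4-11 at 24 h was 0 in place of 1 with no filter on low values (*CHAC1* limma adjusted p = 0.109), with a filter at 10 TPM and by Dunn tests, and ranged from 0 to 1 without each library in turn. The filter of 10 TPM, which removes *CHAC1*, also left 0 in MV4-11 at 8 h. An unadjusted p gave 3 genes in MV4-11 and 3 in THP1 at 8 h, 2 in THP1 at 24 h and 1 for the difference of the responses at 24 h. For THP1 at 24 h the count of 0 became 3 with median-of-ratios scaling and 2 without the 5 noncoding RNAs. Without the THP1 libraries numbered 3 it was 3 at 8 h and 4 at 24 h, and 2 and 5 when median-of-ratios scaling was added. Between the untreated lines it was 3 to 4 without each library in turn. Without 1 library of a group, its spread is taken from the others in the fit. Median-of-ratios scaling moved the mean of *CEBPG* in MV4-11 DMSO to 68.6 TPM and of *ATF5* in THP1 DMSO to 8.72 TPM, and brought the medians of all genes to between -0.01 and 0.00 in the 4 comparisons with DMSO. The cause of these shifts was not tested. Counts under refits with another scaling, filter, block or set of libraries are given without the share of all genes called.

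With the replicate number as a block, the count in THP1 at 24 h was 2, and 3 with median-of-ratios scaling. The block changed no other call. In the pairs of groups not taken as paired, same-numbered deviations correlated at 0.034 to 0.204 (MV4-11 DMSO and 8 h), 0.066 to 0.441 (MV4-11 DMSO and 24 h) and 0.044 to 0.479 (THP1 DMSO and 8 h).

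Sign changes under median-of-ratios scaling, with or without the block, were -0.018 for *ATF5* in MV4-11 at 24 h, 0.044 for *CEBPG* in THP1 at 8 h and -0.014 for *CHAC1* in THP1 at 24 h against 8 h. In the differences of the responses they were 0.094 for *CEBPB* and 0.025 for *CEBPG* at 8 h, and 0.015 for *DDIT3*, 0.089 for *CEBPB* and 0.11 for *CEBPG* at 24 h. Without the 5 noncoding RNAs, *CEBPG* was 0.020 in THP1 at 8 h and -0.014 in MV4-11 at 24 h against 8 h, and the differences of the responses were 0.0048 and 0.069 for *CEBPB* at 8 h and 24 h and 0.079 for *CEBPG* at 24 h. Without mitochondrially encoded genes, *ATF5* in MV4-11 at 24 h against 8 h was 0.00035 and *TRIB3* in the difference at 8 h was -0.0054. With a pseudocount of 0.1, *CHAC1* in THP1 at 24 h against 8 h was -0.0091 and *TRIB3* in the difference at 8 h was -0.057. Without the THP1 libraries numbered 3, *CEBPB* in THP1 at 24 h against 8 h was -0.028, and with median-of-ratios scaling added it was -0.051 and *CEBPG* in THP1 at 8 h was 0.077.

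Leaving out 1 library at a time gave ranges that crossed 0. In MV4-11 at 8 h these were -0.018 to 0.16 for *ATF5* and -0.013 to 0.19 for *CEBPG*. In THP1 they were -0.0031 to 0.32 for *ATF5* and -0.20 to 0.028 for *CEBPG* at 8 h, and -0.081 to 0.10 for *CEBPG* and -0.12 to 0.32 for *PPP1R15A* at 24 h. For 24 h against 8 h in MV4-11 they were -0.084 to 0.093 for *ATF5*, -0.18 to 0.18 for *DDIT3* and -0.057 to 0.14 for *CEBPG*, and in THP1 -0.029 to 0.44 for *ATF4*, -0.054 to 0.23 for *CEBPB*, -0.016 to 0.21 for *CEBPG* and -0.23 to 0.33 for *CHAC1*. In the difference at 8 h they were -0.13 to 0.21 for *ATF4*, -0.086 to 0.23 for *ATF5*, -0.16 to 0.45 for *DDIT3*, -0.26 to 0.036 for *CEBPB*, -0.12 to 0.13 for *TRIB3* and -0.021 to 0.24 for *PPP1R15A*. At 24 h they were -0.093 to 0.31 for *ATF4*, -0.36 to 0.035 for *DDIT3* and -0.091 to 0.42 for *CHAC1*.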
